A study of Rattus norvegicus with 4 samples.

Results

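The zinc finger genes described here are those whose rat symbol is Zfp or Znf followed by a digit and whose mean transcript level over the 4 cultures was at least 2 TPM (a transcript level corrected for length and scaled to the same total in every sample). Of the 23360 gene symbols in the data, 264 had such a name and 203 passed the level, 3 of them with a Znf symbol. Of the 264, 14 were at 0 in all 4 cultures and 47 were above 0 but under a mean of 2 TPM. The last members inside the limit were Zfp438 (2.02 and 1.98 TPM in 2D, 2.03 and 2.24 TPM in 3D) and Zfp950, and the first outside it were Zfp608 and Zfp764. In 7 members the monolayer mean was under 2 TPM, so that they passed only through their higher level in 3D and had to have a positive difference.

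Messenger RNA had been sequenced from INS-1 cells, an established rat insulinoma line used as a model of the pancreatic beta cell, here with a human insulin gene. The control group was 2 cultures grown flat as 2D monolayers, and the other group was 2 cultures 3D-bioprinted into GelXA LAMININK 411, a hydrogel that contains a laminin. All 4 cultures were at passage 3 and were harvested after 5 days. The labels call the 2 cultures of a group biological replicates, and every p-value below measures the spread between such cultures of 1 line.

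A classical zinc finger is a short fold held together by a zinc ion between cysteine and histidine residues, and a row of such fingers reads a DNA sequence. The symbol Zfp covers a mixed family. Many members carry a KRAB domain, which recruits the corepressor Trim28 and through it enzymes that methylate histones and silence transposable elements and imprinted regions, while others activate promoters, take part in chromatin complexes, or bind RNA through fingers of another type. Genes of the KRAB class often lie beside each other in the genome and resemble each other in sequence.

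Markers of the labelled cell type were abundant in all 4 cultures. The beta-cell genes, 11 of the 12 listed being in the data, among them Ins1, Ins2, Iapp and Pdx1, summed to between 148031 and 171010 TPM, whereas listed fibroblast, endothelial and immune genes summed to at most 2.35, 1.68 and 1.47 TPM. Within the beta-cell list, Ins1 made up most of the sum, Ins2 was called lower (-0.58 on the log2 scale, with an adjusted p of 0.00946 by limma), while Slc2a2 (0.39) and Pcsk2 (0.58) rose. Of the genes that define the other islet cells, Irx2 and Hhex were at 0 and Sst and Ppy were under 0.3 TPM. Glucagon (Gcg) was present at 41.9 and 73.8 TPM in 2D and at 124 and 155 TPM in 3D. Mitochondrially encoded transcripts took 10.1% and 9.35% of TPM in the monolayers and 12.99% and 12.26% in the bioprinted cultures, and the part of these shares and of Gcg in the differences below was not tested.

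Promoters of 4 members are shown to place the largest changes in sequence, the 2 largest rises and the 2 largest falls among members with an entry in RefSeq (build GRCr8). Each is the 250 bases before the transcription start given in RefSeq, read 5′ to 3′ on the strand of the gene. These starts were not checked in the cultures used here. Capitals mark every match, on either strand, to one of the motifs given after them. Zfp612 lies on the plus strand at chr19:54963193-54963442, Zfp26 on the minus strand at chr8:27261650-27261899, Zfp524 on the minus strand at chr1:77854697-77854946 and Zfp367 on the plus strand at chr17:970646-970895.
Zfp612: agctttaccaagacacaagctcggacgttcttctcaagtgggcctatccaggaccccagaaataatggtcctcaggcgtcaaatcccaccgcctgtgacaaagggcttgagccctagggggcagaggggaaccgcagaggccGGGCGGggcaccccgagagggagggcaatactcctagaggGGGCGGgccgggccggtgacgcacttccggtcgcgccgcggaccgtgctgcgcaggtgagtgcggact
Zfp26: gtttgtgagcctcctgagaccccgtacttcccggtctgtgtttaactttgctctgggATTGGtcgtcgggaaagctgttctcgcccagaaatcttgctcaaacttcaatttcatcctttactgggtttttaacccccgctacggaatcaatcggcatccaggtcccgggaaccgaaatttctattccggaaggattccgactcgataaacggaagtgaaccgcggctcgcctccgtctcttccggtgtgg
Zfp524: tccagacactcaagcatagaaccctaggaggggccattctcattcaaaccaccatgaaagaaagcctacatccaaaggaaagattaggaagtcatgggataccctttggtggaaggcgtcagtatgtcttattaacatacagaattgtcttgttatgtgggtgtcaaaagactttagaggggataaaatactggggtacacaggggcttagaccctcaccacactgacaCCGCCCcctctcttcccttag
Zfp367: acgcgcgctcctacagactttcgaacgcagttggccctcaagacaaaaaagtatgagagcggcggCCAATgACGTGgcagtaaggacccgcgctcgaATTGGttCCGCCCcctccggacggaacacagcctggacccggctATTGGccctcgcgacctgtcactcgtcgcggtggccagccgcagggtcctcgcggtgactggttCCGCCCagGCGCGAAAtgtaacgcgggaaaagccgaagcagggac
The Zfp612 window held 2 GC boxes, the Zfp26 window 1 CCAAT box, and the Zfp524 window 1 GC box. The Zfp367 window was the richest of these in matches, with 2 GC boxes, 3 CCAAT boxes, a hypoxia element core and an E2F motif. It also had 29 CpG dinucleotides, against 20 in Zfp612, 19 in Zfp26 and 2 in Zfp524.

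A RefSeq promoter was found for 163 of the 203 members. Their median GC content was 57.2%, against 51.2% over all 33469 promoters of the table, and their median number of CpG dinucleotides was 14 against 5. The GC box (GGGCGG), the site of Sp and Klf factors, was present in 50.3% of members and 30.5% of all promoters, and the CCAAT box (CCAAT) in 38% and 34%. The TATA box (TATAAA) was found in 8.59% of members and 12.9% of all promoters. Among rarer motifs, the E2F motif (TTTNGCGC) stood at 3.07% (5 members) against 1.04%, and the NRF1 motif at 3.07% (5 members) against 0.762%. The cAMP response element (TGACGTCA) stood at 2.45% (4 members) against 1.59%. The E-box (CACGTG) was present in 6.75% against 5.59%, and the hypoxia element core (ACGTG), which overlaps every such E-box, in 20.2% against 16.6%. The 33469 promoters were not limited to expressed genes or to 1 promoter per gene, whereas the members were. Whether these differences are particular to zinc finger genes was not tested. Matches are descriptions of the letters in these windows. They were not split by response, because only 35 of the 50 members that rose had a promoter in the table.

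As a family, the zinc finger genes took a somewhat larger share of the transcripts in 3D culture. Their TPM summed to 2664 and 2448 in the monolayers (0.266% and 0.245% of the total) and to 2856 and 2874 in the bioprinted cultures (0.286% and 0.287%). The bioprinted cultures lay close together and above both monolayers, which differed from each other by more. The group means were 2556 ± 153 and 2865 ± 12.6 TPM (SD, n = 2), a ratio of 1.12. These are deposited TPM, before the scaling used below (factors 1.011 and 0.9601 in 2D, 1.008 and 1.023 in 3D). In deposited TPM, monolayer replicate 2 was the lower monolayer in 79.3% of members and in 66.8% of all genes tested. The level of the middle member was 7.58 and 7.19 TPM in 2D and 9.34 and 9.39 TPM in 3D. Bulk RNA cannot tell a change per cell from a change in the share of cells that express a gene.

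For the test of single genes, TPM were summed per symbol and scaled between samples, and limma was applied to log2(TPM + 1) for the 11960 genes with a mean of at least 1 TPM, all members included. A gene is called where its Benjamini-Hochberg adjusted p was below 0.05, and all fold changes are 3D minus 2D on that log2 scale, which understates changes of low genes. Of the 203 members, 66 were called (32.5%, against 38% of all genes tested). Of these, 50 rose in 3D culture (24.6%, against 18.5% of all genes) and 16 fell (7.88%, against 19.5%), and the other 137 did not pass. The split of directions was thus uneven among the members and nearly even among all genes, whose split also varied with level, as given below. Genes tested within the members' range of levels, from 2 TPM to that of the highest member, gave 19.6% higher and 18.3% lower. Their median level was 15.3 TPM, above the 8.49 TPM of the members, so they do not match the members' levels.

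The shift was small for most members and went beyond those that were called. The median log2 fold change of the members was 0.15, against -0.00 for all genes tested, and 139 members had a positive and 64 a negative value (68.5% positive, against 49.5% of all genes). The middle part of the family, from the lower to the upper quartile, lay between -0.05 and 0.33, and the full range ran from -0.66 to 1.47 with an SD of 0.31 between members. In 125 members both bioprinted cultures were above both monolayers in deposited TPM (61.6%, against 41.1% of all genes), in 37 both were below (18.2%, against 33.2%), and in 41 the groups overlapped (they did not overlap in 74.2% of all genes tested, and in 74.2% of those at the members' level). Of all members, 24 were called with a change above 0.5 in size, 21 of them higher and 3 lower, and 4 rose by more than 1. Without the 7 members that passed only through 3D culture, 3 of which were called higher, 47 of 196 rose and 16 fell (24% and 8.16%, against 17.9% and 21.1% of all genes with both group means of at least 2 TPM). Of these 196, 132 had a positive value (67.3%, against 47.8%), and the median was 0.14.

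**Figure D1:**
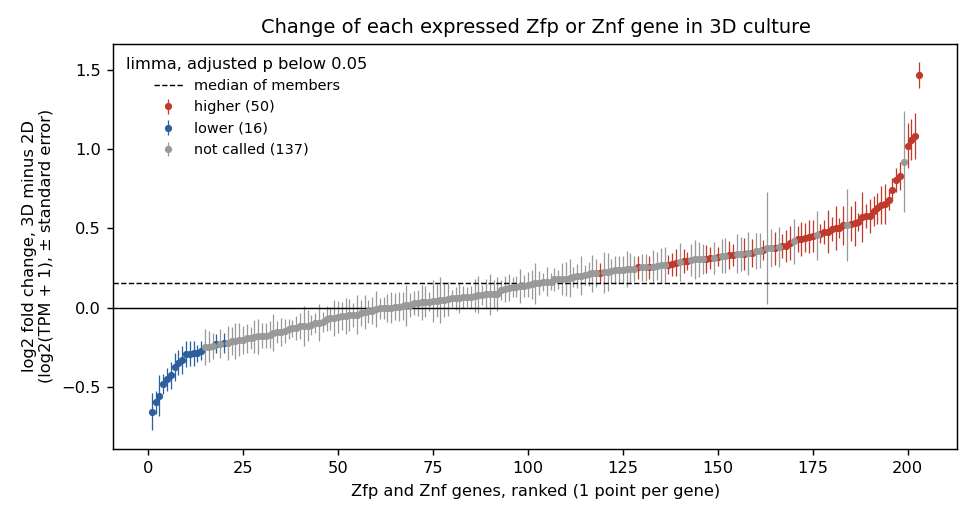
Each point is 1 of the 203 zinc finger genes, ranked on the x axis by its log2 fold change (y axis, 3D minus 2D, on log2(TPM + 1)), with bars of ± 1 standard error from limma and colour for the call. The 50 genes called higher (red) and 16 called lower (blue) lie toward the ends of a continuous curve, with genes not called (grey) among them. The median of the curve (dashed line, 0.15) is above 0.

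The counts depended on single cultures. Monolayer replicate 2 was the lower of the monolayers in 126 of 203 members on scaled values (62.1%, against 47.2% of all genes), and in 38 of the 50 members called higher. Without it, 30 members were called higher and 7 lower (14% and 13% of all genes). Without monolayer replicate 1 these were 54 and 10 (19% and 18.6%), without bioprinted replicate 2 they were 10 and 3 (4.79% and 3.92%), and without bioprinted replicate 1 they were 1 and 0 (0.881% and 0.26%). The median log2 fold change stayed between 0.12 and 0.17 in these 4 fits. Only without monolayer replicate 1 was the share of members called higher clearly above that of all genes. In the other fits it was near or below that of all genes. The share of members called lower was below that of all genes in each fit.

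The share of members called rose with their level, as it did for other genes. Among the 54 members with a mean of 2 to 5 TPM, 8 rose and 2 fell (14.8% and 3.7%, against 21.3% and 8.67% of all genes in that range). This range holds the 7 members that passed only through 3D culture and could not have fallen. They account for 3 of its 8 rises. Among the 91 members at 5 to 15 TPM, 27 rose and 5 fell (29.7% and 5.49%, against 21.1% and 14.1%). Among the 58 at 15 TPM or more, 15 rose and 9 fell (25.9% and 15.5%, against 18% and 24.3% of genes at 15 to 100 TPM). In the lowest range the members thus had smaller shares than other genes in both directions, and in the upper ranges a larger share higher and a smaller share lower. From the low to the high range, the median log2 fold change was 0.13, 0.16 and 0.12 for members. For all genes it was 0.08, 0.05 and -0.03. Positive values made up 70.4%, 67% and 69% of members and 59.1%, 55.3% and 45.4% of all genes. Below 15 TPM the gap between members and all genes was thus smaller than over all levels.

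**Figure D2:**
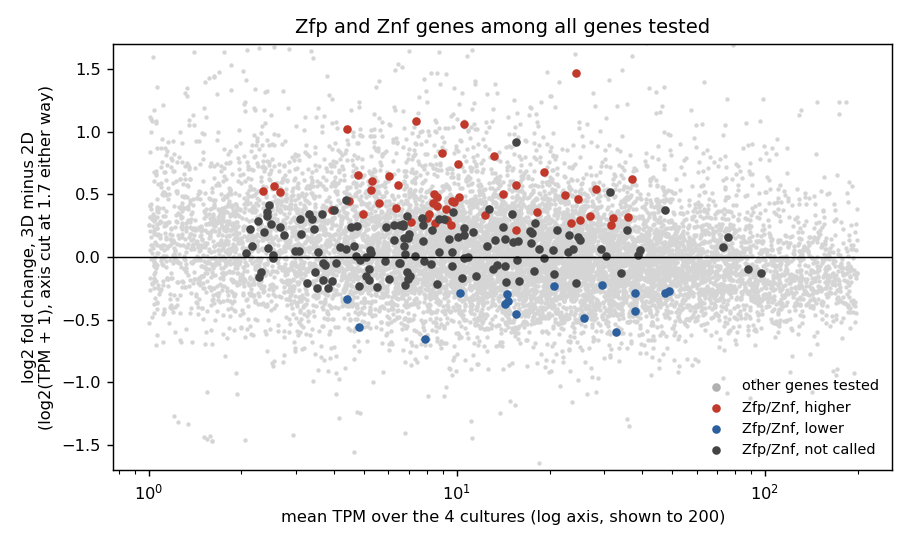
Mean TPM over the 4 cultures (x axis, log scale) is plotted against log2 fold change (y axis, 3D minus 2D) for the zinc finger genes, coloured by call, and for the other genes tested in grey. Members lie between 2 and 97 TPM, and those called higher reach up to Zfp266 at 37.0 TPM, with the largest rise, 1.47, in Zfp612.

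Related zinc finger families were read beside them, and beside the 18.5% of all genes tested that rose and 19.5% that fell. Of 35 Zbtb genes, which join the fingers to a BTB domain, 4 rose and 2 fell (11.4% and 5.71%), with a median log2 fold change of 0.11. Of 13 Zscan and Zkscan genes, which carry a SCAN domain, 3 rose and 1 fell (23.1% and 7.69%), with a median of -0.08. Of 17 Klf and Sp genes, the factors of GC-rich sites, 6 rose and 2 fell (35.3% and 11.8%), with a median of 0.27. Of 18 Zc3h genes, whose fingers bind RNA, 2 rose and 2 fell (11.1% in each direction), with a median of 0.08. With either bioprinted culture left out, calls in these 4 families became fewer. So did calls among all genes tested, whose shares in those fits are given above. The differences between these families and the Zfp and Znf members were not tested.

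**Figure D3:**
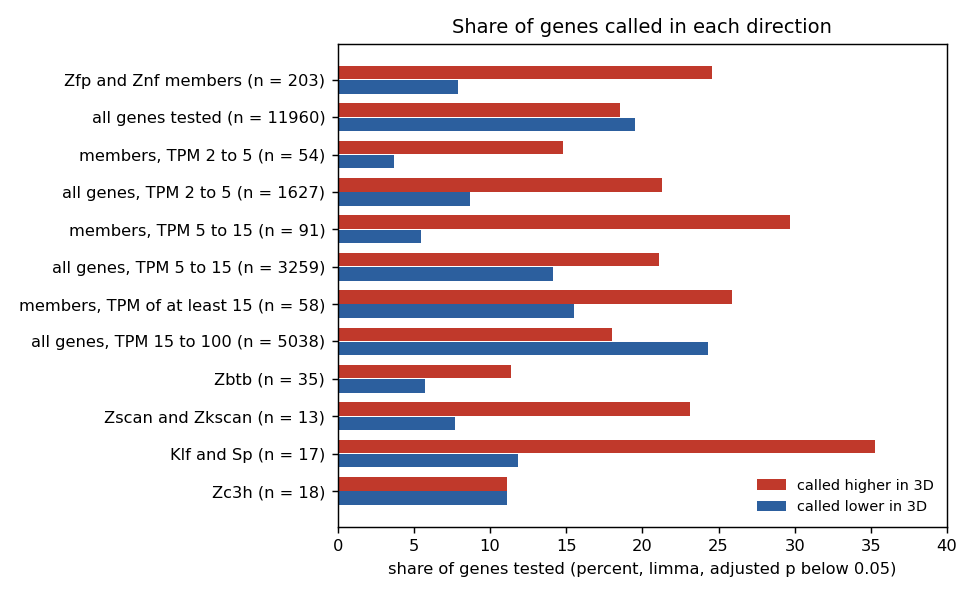
Bars give the percentage of genes called higher (red) and lower (blue) in 3D culture, for the zinc finger members, all genes tested, members and all genes in 3 ranges of mean TPM, and 4 related families. For the members the red bar (24.6%) is longer than the blue (7.88%), and for all genes they are near equal (18.5% and 19.5%).

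Of the 6 most abundant members, 1 was called, beside 38% of all genes tested. Zfp706, a small protein linked to the exit of stem cells from self-renewal, stood at 103 and 97.2 TPM in 2D and 95.2 and 92.9 TPM in 3D (log2 fold change -0.13, adjusted p = 0.105 in limma). Zfp207, a spindle protein that carries Bub3 to kinetochores, stood at 95.9 and 83.5 TPM in 2D and 84.2 and 88.8 TPM in 3D, with overlapping groups. Zfp326, which couples transcription to splicing, stood at 70.5 and 69.9 TPM and at 80.4 and 81.8 TPM. Its groups were apart, but it did not pass the test (0.16, adjusted p = 0.0623 in limma). Zfp91, a ubiquitin ligase of non-canonical NF-kB signaling, had 74.3 and 65.7 TPM in 2D and 77.7 and 74.8 TPM in 3D, also without a call (0.08). Zfp358 was the called gene, lower in both bioprinted cultures, from 54.2 and 51.0 TPM to 45.7 and 43.8 TPM (-0.27, SE 0.058, adjusted p = 0.0193 in limma). The pseudogene Zfp780b-ps1 had the widest spread of the 6, with 59.94 and 25.002 TPM in the monolayers and 53.4 and 50.9 TPM in 3D. Its log2 fold change of 0.37 (SE 0.35) was not called and became -0.21 without monolayer replicate 2.

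The rises were led by Zfp612, which held 12.7 and 11.7 TPM in the monolayers and 38.6 and 34.3 TPM in the bioprinted cultures. Both bioprinted values were far above both monolayers, at 3.00 times their mean (log2 fold change 1.47, SE 0.081, adjusted p = 0.00267 in limma), and it was the member still called with any single culture left out. Zfp871 went from 4.97 and 3.62 TPM to 11.4 and 9.51 TPM (1.08, SE 0.14, adjusted p = 0.00634). Zfp26, whose promoter is shown above, went from 7.40 and 5.37 TPM to 15.5 and 13.9 TPM (1.06, SE 0.13, adjusted p = 0.00569). In both of these the groups were well apart and monolayer replicate 2 was the lowest culture. Zfp704 rose from 3.03 and 2.03 TPM to 5.98 and 6.54 TPM (1.02, SE 0.14, adjusted p = 0.00704). Zfp395, its paralog and a factor first described at the Huntington's disease gene promoter, rose from 8.95 and 9.41 TPM to 17.2 and 17.3 TPM (0.80, SE 0.076, adjusted p = 0.00409). The bioprinted values of Zfp395 nearly coincided.

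Other large rises were those of Zfp189, Zfp462 and Zfp652. Zfp189, a KRAB zinc finger protein studied in stress resilience of the mouse cortex, was at 6.68 and 5.47 TPM in 2D and at 11.8 and 11.9 TPM in 3D (0.83, SE 0.090, adjusted p = 0.00471). Zfp462, which works with histone methyltransferases to keep lineage genes closed in embryonic stem cells, was at 7.43 and 6.87 TPM and at 13.4 and 12.7 TPM (0.74, SE 0.074, adjusted p = 0.00425). Zfp652, a repressor that partners with Cbfa2t3, was at 14.97 and 13.54 TPM and at 23.3 and 25.1 TPM (0.68, SE 0.068, adjusted p = 0.00424). In all 3 the bioprinted cultures were at least 1.69 times the monolayers by the group means. Without each culture in turn, Zfp704 was called in 2 of the 4 fits and each of the other 6 rises after Zfp612 in 3. The remaining rises ran from 0.22 for Zfp746 to 0.65 for Zfp867.

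The falls were fewer and smaller. Zfp524, a telomere-binding protein, stood at 9.23 and 10.2 TPM in 2D and 5.40 and 6.62 TPM in 3D (-0.66, SE 0.12, adjusted p = 0.0121 in limma). Zfp367, also called ZFF29 and described as an activator of erythroid genes, stood at 42.5 and 36.3 TPM in 2D and 26.0 and 26.8 TPM in 3D (-0.60, SE 0.072, adjusted p = 0.00547). Both bioprinted cultures lay below both monolayers in each, at 0.618 and 0.670 times the monolayer mean. Zfp691 went from 5.9999 and 5.67 TPM to 3.22 and 4.38 TPM (-0.56, SE 0.13, adjusted p = 0.0244), and Zfp771 from 29.8 and 30.2 TPM to 21.2 and 22.4 TPM (-0.48, SE 0.065, adjusted p = 0.00663). Zfp787, at 17.9 and 18.0 TPM and then 13.5 and 12.9 TPM, fell by a like amount (-0.45, SE 0.071, adjusted p = 0.00899). Next in size were Zfp791 (-0.43), Zfp688 (-0.37) and Znf768 (-0.35), the last a factor linked to Ras signaling and proliferation. With each culture left out in turn, Zfp524 and Zfp367 were called in 3 of the 4 fits, Zfp771, Zfp787 and Zfp791 in 2, Zfp691 and Znf768 in 1, and Zfp688 in none. The other falls ran from -0.33 to -0.23.

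**Figure D4:**
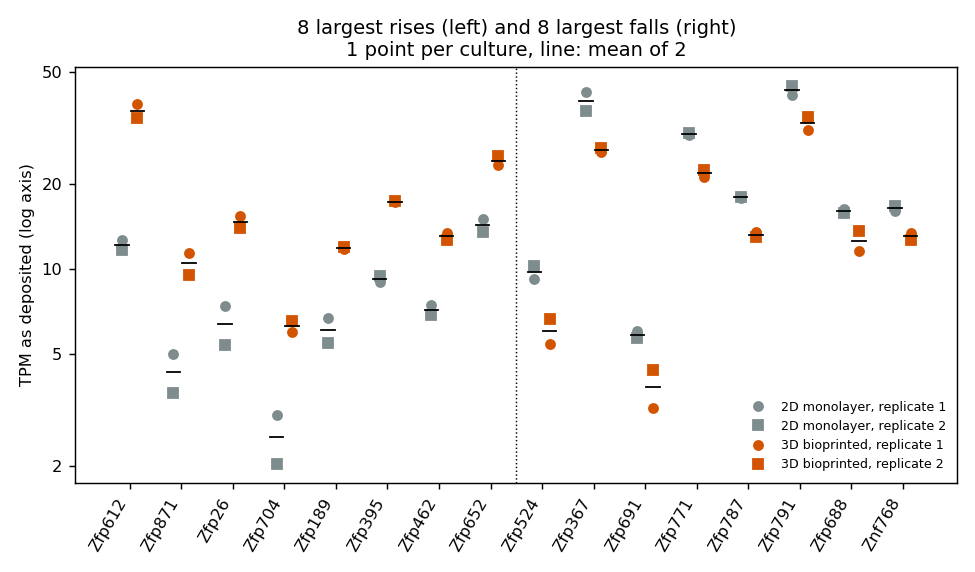
Deposited TPM (y axis, log scale) of the 8 members with the largest called rises, on the left, and the 8 with the largest called falls, on the right, 1 point per culture (grey 2D, orange 3D; circle replicate 1, square replicate 2) and a line at each mean of 2. In none of the 16 genes do the groups overlap, and Zfp612 shows the widest gap, from a 2D mean of 12.2 to a 3D mean of 36.4 TPM.

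By role, the members that act on RNA were mixed. Of the CCCH proteins that bind AU-rich mRNA and speed its decay, Zfp36 (tristetraprolin) rose from 7.51 and 8.15 TPM to 12.1 and 10.7 TPM (0.45, SE 0.10, adjusted p = 0.0214 in limma). Zfp36l2 had 16.3 and 15.7 TPM in 2D and 18.97 and 18.99 TPM in 3D, apart but not called (0.19, adjusted p = 0.0548). Of the other genes of this group, Zfp36l1 had a mean of 0.021 TPM and Zfp36l3 was at 0. Of 10 tested genes of RNA and the ribosome, 1 rose and 2 fell (10% and 20%, against 18.5% and 19.5% of all genes). Zfp598, the ubiquitin ligase that marks collided ribosomes, was the rise, from 33.0 and 29.8 TPM to 40.9 and 40.3 TPM (0.32, adjusted p = 0.0134). Zfp622, needed to mature the large ribosomal subunit, fell from 52.4 and 50.3 TPM to 43.2 and 43.1 TPM (-0.29, adjusted p = 0.0134). Zfp385a, an RNA-binding partner of p53 responses, fell from 31.7 and 31.2 TPM to 28.2 and 27.1 TPM (-0.23, adjusted p = 0.0379). The median of these 10 was -0.04.

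Of 12 tested members that work in chromatin complexes, 11 had a positive log2 fold change (68.5% of all members and 49.5% of all genes had one), 4 rose and none fell (18.5% and 19.5% of all genes), with a median of 0.25 (0.15 over all members). Zfp518a, on this list, had means of 1.90 TPM in 2D and 2.61 TPM in 3D. It passed the limit only through 3D culture, so its positive sign was fixed by the limit. In all 12 genes of the list, monolayer replicate 2 was the lower monolayer in deposited TPM (79.3% of members and 66.8% of all genes). The part of that culture in the signs of this list was not tested. By an unadjusted p under 0.05, which this list reached for 7 genes, none fell either. The 4 called genes were Zfp462, Zfp827, Zfp518b and Zfp532. Zfp827, which brings the NuRD complex to telomeres, was at 8.64 and 7.74 TPM in 2D and 12.4 and 11.9 TPM in 3D (0.48, adjusted p = 0.00929 in limma). Zfp518b, a partner of histone methyltransferases, had 0.43 (adjusted p = 0.0296), and Zfp532, of a complex that reads acetylated chromatin, had 0.26 (adjusted p = 0.04). Zfp445, a KRAB protein that protects imprinted regions, rose from 7.80 and 5.67 TPM to 10.9 and 9.39 TPM (0.50, adjusted p = 0.0391). Zfp57, with the same duty in the early embryo, was almost absent, with a mean of 0.013 TPM.

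Of the 6 promoter-binding activators and GC-box factors, 3 rose and none fell, nor did any at an unadjusted p under 0.05 (18.5% of all genes rose and 19.5% fell). Zfp523, also known as Zfp76 and a paralog of the promoter factor Zfp143, had 22.1 and 24.7 TPM in 2D and 30.3 and 30.8 TPM in 3D (0.33, adjusted p = 0.0344 in limma). Zfp281 and Zfp148, which bind GC-rich promoters, had log2 fold changes of 0.31 (adjusted p = 0.0412) and 0.25 (adjusted p = 0.0408). Zfp384 did not pass (0.13, adjusted p = 0.16). Of 10 tested genes of differentiation and signaling, 2 rose and none fell (none at an unadjusted p under 0.05 either), Zfp395 and Zfp746 (PARIS, a repressor that the ligase parkin removes), the latter from 14.7 and 13.5 TPM to 16.7 and 17.3 TPM (0.22, adjusted p = 0.0434). Zfp451, a SUMO ligase, and Zfp580 had the next smallest p-values and were not called, at 0.20 (adjusted p = 0.0523) and 0.38 (adjusted p = 0.0598).

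The silencing machinery that KRAB proteins recruit, which is not part of the family, was tested as a list of 21 genes, of which 11 were called (52.4%, against 38% of all genes), 6 higher and 5 lower, with a median of -0.10. Trim28, the common corepressor, stood at 165 and 161 TPM in 2D and 149 and 155 TPM in 3D and was not called (-0.14, adjusted p = 0.0803 in limma). Setdb1, the histone methyltransferase it brings in, rose from 22.3 and 20.9 TPM to 26.5 and 26.5 TPM (0.24, adjusted p = 0.0262). Tasor, of the HUSH silencing complex, rose from 12.3 and 8.14 TPM to 20.1 and 19.5 TPM (0.88, adjusted p = 0.012), and Resf1, a silencer of retroelements, rose as well (0.67, adjusted p = 0.00515). The falls included Uhrf1, which carries DNA methylation through replication, from 42.6 and 36.7 TPM to 21.5 and 25.1 TPM (-0.79, adjusted p = 0.00511), and Cbx1, a heterochromatin protein (-0.37, adjusted p = 0.0108).

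Calls in the lists by role and in the silencing machinery became fewer with a bioprinted culture or monolayer replicate 2 left out. So did calls among all genes tested, whose shares in those fits are given above. Those fits leave 1 culture in a group, and counts per list are not given for them. Zfp445, Zfp36, Zfp148, Zfp523, Zfp518b and Setdb1 each lost their call in most of the 4 fits. Over these fits the log2 fold change ran from 0.33 to 0.67 for Zfp445 and from 0.36 to 0.54 for Zfp36. Zfp746, Zfp532, Zfp281 and Zfp385a were called in none of the 4 fits that left out a culture. Among 9 other settings, Zfp746 was called in 5, Zfp148 in 6, and Zfp385a, Zfp445, Zfp523 and Zfp532 in 7, the losses coming without scaling, without the expression filter, without limma's trend or with a replicate block.

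Position in the genome was read from the order of genes in GRCr8, in which 196 members were found, since neighbouring genes of this kind often arose by duplication. Allowing at most 3 protein-coding genes between neighbours, 8 groups held 4 members or more, 39 in all, of which 9 rose and 6 fell (median 0.13). Of the 157 other members found, 38 rose and 10 fell (median 0.15), beside 18.5% and 19.5% of all genes. The 3 groups described next were picked after their values were seen, as the tightest, the one with the most falls and the widest in range. In the group of Zfp866, Zfp869, Zfp964 and Zfp868 the log2 fold changes lay close together, between 0.30 and 0.38, and 3 of the 4 genes rose. Of Znf48, Zfp771, Znf768, Zfp764l1 and Zfp688, 3 of 5 fell, and the values ran from -0.48 to 0.34. Of Zfp560, Zfp26, Zfp426, Zfp266 and Zfp846, only Zfp26 and Zfp266 were called, so that neighbours ranged from -0.00 for Zfp426 to 1.06 for Zfp26. Zfp266, a KRAB protein that hinders reprogramming, stood at 31.4 and 25.4 TPM in 2D and at 47.6 and 43.5 TPM in 3D (0.63, adjusted p = 0.0089 in limma). Members of such groups can share sequence, so the division of reads between near copies is uncertain.

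**Figure D5:**
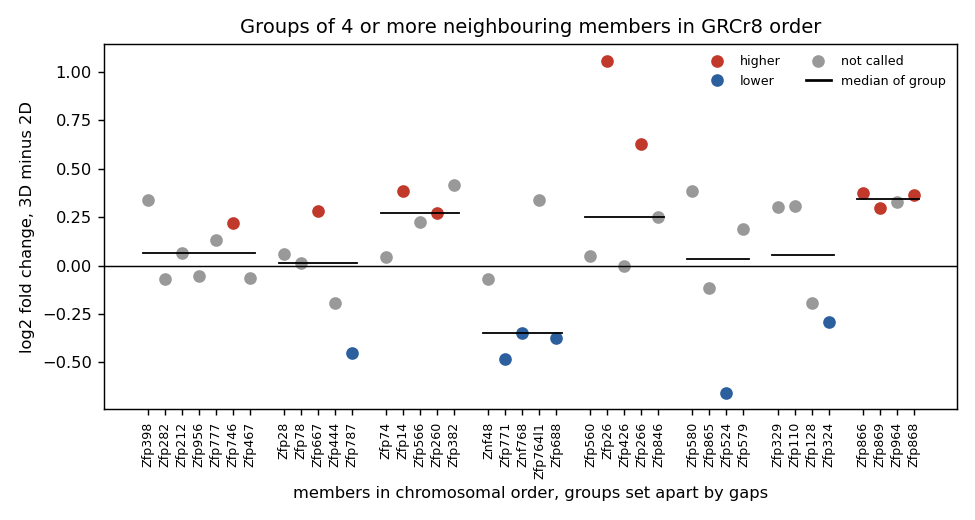
Log2 fold change (y axis, 3D minus 2D) of the 39 members in 8 groups of neighbouring zinc finger genes, in the order of GRCr8 along the x axis, coloured by call, with a line at each group's median. The rightmost group, from Zfp866 to Zfp868, is tight around 0.34, whereas the group with Zfp26 spreads from -0.00 to 1.06.

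Transcripts of 1 gene did not always move together. Of the 203 members, 144 had 1 transcript in the data and 59 had more. At least 2 transcripts with a mean of 1 TPM or more were present in 46, and in 7 of these, Zfp346, Zfp629, Zfp426, Zfp106, Zfp444, Zfp955a and Zfp131, 1 transcript was higher in both bioprinted cultures and another lower. This was 15.2% of the 46, near the 14.7% (349 of 2370) found over all genes tested with as many transcripts. The clearest case, chosen after its values were seen, was Zfp106, an RNA-binding protein needed by motor neurons. Its transcript ENSRNOT00000081074.1 stood at 12.96 and 10.74 TPM in 2D and 6.70 and 9.57 TPM in 3D. Its transcript ENSRNOT00000078893.1 stood at 2.32 and 0 TPM in 2D and 10.0 and 7.42 TPM in 3D. The sum over the gene, 15.4 and 10.8 TPM in 2D and 17.0 and 17.2 TPM in 3D, did not pass the test (0.34, adjusted p = 0.099 in limma). In Zfp629, 1 transcript went from 5.47 and 5.33 TPM to 3.73 and 3.80 TPM, and another from 8.24 and 7.72 TPM to 9.21 and 8.92 TPM. Transcript levels were not tested, as short single-end reads divide similar transcripts by estimate.

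Some large fold changes were not called, and 2 of these members were singled out after their values were seen. Zfp37 stood at 14.99 and 6.55 TPM in the monolayers and 18.7 and 22.1 TPM in 3D (0.92, SE 0.32, adjusted p = 0.0684 in limma). Zfp606 stood at 31.5 and 19.4 TPM in the monolayers and 31.5 and 43.3 TPM in 3D (0.52, SE 0.23, adjusted p = 0.122). In both, monolayer replicate 2 was the lowest culture, and the difference between the groups was of the order of that between replicates.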

How the data were processed

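The authors sequenced polyA RNA of 2 monolayer and 2 bioprinted cultures (stranded libraries, single-end reads), checked the reads with FastQC 0.11.8, quantified transcripts with Salmon 1.2 on rn4 with the human insulin gene, and deposited TPM per transcript, without counts. TPM keep no depth, so no counting interval is given. The study's count test could not be run on them.

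TPM were summed per symbol, scaled between samples with a trimmed mean of M values, unweighted (30% of M and 5% of A trimmed) and tested with limma 3.58.1 (empirical Bayes with trend, R 4.3.3) on log2(TPM + 1), where the mean reached 1 TPM. The steps were tested on simulated data. Same-numbered cultures were not paired (r = -0.006 over 11960 genes).

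Members and lists were chosen with earlier results of these data known. Named are the 6 highest members, the 8 largest called rises and falls, the leading members of each role list (4 by p), the 2 genes on either side of the limit, and 6 genes of the KRAB machinery, with others marked as chosen later or given as members of a group of neighbours. Zfp568, Zfp809 and Zfp932 were not analysed here, nor were protein sequences. Promoters and gene order came from RefSeq GRCr8, used apart from rn4. Alternatives covered scaling, filter, pseudocount, limma options, thresholds, a replicate block and leaving out each culture.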

Additional observations from a re-analysis of the deposited data

How the results depend on the processing

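The excess of higher over lower calls among the members, the sign of their median and the higher summed TPM in 3D culture held in every alternative run. Without bioprinted replicate 1, however, almost no member was called. Without monolayer replicate 2 or either bioprinted culture, the share of members called higher was near or below that of all genes. Without scaling, 50 members were called higher and 9 lower (18.9% and 15.2% of all genes), and the median was 0.19 (all genes 0.036). Without an expression filter, 39 were called, 28 higher and 11 lower (9.71% and 12.6% of all genes), with a median of 0.12. At an adjusted p below 0.01, 19 were called (16 higher, 3 lower), and below 0.1, 103 (85 higher). The shares of all genes at these thresholds are not given, so these counts do not compare members with other genes. With each culture left out, calls ran from 1 to 64, higher calls from 1 to 54, lower calls from 0 to 10, and the median from 0.12 to 0.17. The lone culture of a group was there assumed to vary like the other group. Asking for 2 TPM in both groups, chosen after seeing the data, gave 47 higher and 16 lower. A replicate block, whose numbers do not pair the cultures, gave 76 calls (60 higher, 16 lower), also without the share of all genes. Reversals were Zfp780b-ps1 (-0.21 without monolayer replicate 2, up to 0.95 without replicate 1), Zfp438 (-0.00596 without bioprinted replicate 2, up to 0.073) and Zfp764 (-0.015 without a filter, -0.058 without monolayer replicate 2, -0.051 without bioprinted replicate 1, up to 0.074), none of them called in the fit reported. Over the alternatives for single named genes, 505 values kept their side of the threshold, 94 called values fell short of it and 14 passed it. Counts per list stayed within 1.5 times in 103 cases and moved further in 40. The cause of these shifts was not tested. With 2 cultures a group and no depth in TPM, small changes of low members cannot be resolved.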
